A study of Mus musculus with 12 samples.

Results

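Prostaglandins are lipid mediators made from arachidonic acid. The cyclooxygenases COX-1 (encoded by Ptgs1, expressed in many tissues without a stimulus) and COX-2 (Ptgs2, an inducible gene) make the common precursor PGH2, which terminal synthases turn into single prostaglandins. These act on receptors coupled to G proteins, some of which raise cAMP, some of which lower it, and some of which raise intracellular calcium. In the kidney glomerulus, prostaglandins are known to influence blood flow and the contraction of mesangial cells, the pericyte-like cells between the capillaries.

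The 9 genes described here are Ptgs1 and Ptgs2, the terminal synthase genes Ptges (microsomal PGE synthase) and Ptgis (prostacyclin synthase), Ptgfr (the PGF receptor FP) and the PGE receptor genes Ptger1, Ptger2, Ptger3 and Ptger4 (EP1 to EP4). They were selected by symbol, and all 9 were found among the 25230 genes counted. The counts came from RNA-seq of cultured primary mouse mesangial cells (MMC) from kidney glomeruli, in a study of what the long non-coding RNA lncMGC does in these cells and in their response to TGF-β, a cytokine that induces fibrosis. MMC of wild-type (WT) mice gave the groups WT-SD, kept under serum depletion (SD), and WT-TGF, given 10 ng/ml TGF-β over 24 h. MMC of the lncMGC-KO5 line (KO) gave KO-SD and KO-TGF in the same way, and there were 3 libraries per group.

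The KO came from a single mutant line, made by CRISPR-Cas9 in C57BL/6J embryos with a pair of guides around the start site of lncMGC. MMC were grown from pooled glomeruli and used after several passages. Nothing in the labels ties libraries to separate mice or cultures, so p-values measure the spread between these libraries, and the genotype and the cultures that carry it cannot be told apart. lncMGC was not among the genes counted, so its loss was not checked here.

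Each library had between 19898050 and 22827706 counts on genes, and replicates of a group differed little (common biological coefficient of variation 0.0269). Levels are given as CPM, counts relative to a TMM-scaled library size, each as mean ± SD over 3 libraries. RPKM, the CPM per kilobase of exon, is used where genes are set against each other. Fold changes are on the log2 scale with their SE, and adjusted p-values are those of the quasi-likelihood test in edgeR after Benjamini-Hochberg adjustment over all genes tested, with FDR under 5% as the threshold. A count of 3 was the floor of detection, equal to 0.128 to 0.163 CPM depending on the library. Counting intervals cover counting error only. For Ptges, Ptgfr and Ptger3 they were still wider than the fitted SE implies. The fitted SE, and the fitted intervals built on it, therefore understate the error of these sparse genes.

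Of the 9 genes, 4 (Ptgs1, Ptgs2, Ptgis and Ptger4) had RPKM over 1 in at least 1 library and were tested among 11477 such genes. Ptgis did so in the 6 WT libraries and in no KO library. The other 5 stayed below this limit, with highest RPKM values of 0.615 for Ptges, 0.481 for Ptgfr, 0.415 for Ptger1, 0.0431 for Ptger2 and 0.677 for Ptger3, and their values come from a second fit, over all 18565 genes that had any count. For these 5 genes the transcript was sparse in this culture. With bulk RNA, fewer cells of a type and less RNA per cell cannot be told apart. P-values of the first and second fit cannot be set against each other. For Ptgs1 and Ptgs2 in KO-SD against WT-SD, the second fit gave far smaller p-values than the first. With a filter of CPM over 1 in at least 3 libraries, Ptges, Ptger3 and Ptgfr kept their calls in KO-TGF against WT-TGF, with larger p-values.

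The RefSeq promoter windows of 3 genes are printed because these genes carry the main results: Ptgs2, the member with the most counts and the largest rise with TGF-β, Ptgs1, its constitutive counterpart, and Ptgfr, the member with the largest fall with TGF-β. Each window holds 300 bases of GRCm38.p6, 250 before and 50 after the annotated start, read 5′ to 3′ on the strand of the gene. Ptgs2 is at chr1:150099781-150100080 on the plus strand, Ptgs1 at chr2:36230176-36230475 on the plus strand and Ptgfr at chr3:151837479-151837778 on the minus strand. The start used for Ptgs1 lies inside the annotated span of the gene. Capitals mark letter matches, on either strand, to 6 short motifs named below.
Ptgs2: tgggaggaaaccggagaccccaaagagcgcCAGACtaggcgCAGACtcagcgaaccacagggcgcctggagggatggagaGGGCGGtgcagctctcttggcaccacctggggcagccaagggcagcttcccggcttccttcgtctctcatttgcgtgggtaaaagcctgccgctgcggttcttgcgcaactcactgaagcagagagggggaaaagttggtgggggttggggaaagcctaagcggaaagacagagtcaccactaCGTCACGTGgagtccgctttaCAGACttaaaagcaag
Ptgs1: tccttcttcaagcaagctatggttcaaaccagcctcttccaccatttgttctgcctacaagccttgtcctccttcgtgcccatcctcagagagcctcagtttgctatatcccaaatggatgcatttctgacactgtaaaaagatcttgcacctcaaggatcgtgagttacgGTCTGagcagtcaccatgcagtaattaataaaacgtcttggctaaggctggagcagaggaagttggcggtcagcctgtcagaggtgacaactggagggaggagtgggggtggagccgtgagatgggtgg
Ptgfr: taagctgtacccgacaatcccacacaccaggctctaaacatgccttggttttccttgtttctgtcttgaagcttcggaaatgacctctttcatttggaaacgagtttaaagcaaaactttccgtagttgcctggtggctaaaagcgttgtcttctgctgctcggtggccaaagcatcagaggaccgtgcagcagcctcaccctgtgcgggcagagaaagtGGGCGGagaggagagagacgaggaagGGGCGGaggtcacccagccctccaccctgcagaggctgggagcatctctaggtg

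Windows were found for 7 of the 9 genes, all but Ptgis and Ptger1. Both strands were searched for TATAAA, known to bind the general factor TBP, for GGGCGG, known as the GC box, and for the CCAAT box by its letters. The search also covered CACGTG, an E-box, then TGACG, which is part of the cAMP response element, and CAGAC, which is known as the SMAD box. The Ptgs2 window held 3 CAGAC matches, beginning at positions -220, -209 and 35 counted from the start as 1 with no 0, and 1 GGGCGG match. It was also the only one of the 7 with CACGTG, found in 7.15% of all 32851 windows of this length, and the only one with TGACG, found in 20.8%. These 2 matches share bases, since the TGACG match on the minus strand begins at position 14 and runs into CACGTG, which begins at 17. The Ptgs1 window held a single CAGAC match on the minus strand, and the Ptgfr window held 2 GGGCGG matches and no CAGAC. Over the 7 windows, CAGAC was in 5 (49.6% of all windows), GGGCGG in 5 (35.7%), CCAAT in 2 (37.4%) and TATAAA in 0 (13.6%). A match is a description of letters and says nothing of binding.

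The cyclooxygenase genes moved apart between the genotypes. Ptgs2 was higher in KO than in WT MMC both with and without TGF-β, by a fold change of 1.97 in SD and 2.01 with TGF-β, while Ptgs1 was lower, by 1.81-fold and 2.45-fold. TGF-β raised Ptgs2 by 6.87-fold in WT and 7.01-fold in KO MMC. It raised Ptgs1 by 1.46-fold in WT MMC, and in KO MMC the Ptgs1 change did not pass the test.

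Ptgs2 (chr1:150100031-150108234, plus strand) was at 77.8, 72.5 and 74.3 CPM in the WT-SD libraries and at 543, 472 and 529 CPM in the WT-TGF libraries. In KO MMC it was at 158, 142 and 143 CPM in SD and at 1079, 1010 and 1016 CPM with TGF-β. The 4 groups did not overlap, in the order KO-TGF, WT-TGF, KO-SD and WT-SD, so that TGF-β-treated WT MMC stood above untreated KO MMC. The log2 fold change of KO-SD against WT-SD was 0.98 (SE 0.0464, adjusted p = 1.08e-17), and that of KO-TGF against WT-TGF was 1.01 (SE 0.0382, adjusted p = 3.70e-20). With TGF-β it was 2.78 in WT (SE 0.0444, adjusted p = 3.12e-30) and 2.81 in KO MMC (SE 0.0419, adjusted p = 4.70e-31). The difference between these responses, tested as the interaction of genotype and treatment, was 0.03 on the log2 scale with a 95% interval of -0.09 to 0.15 (adjusted p = 0.791). The Ptgs2 folds with TGF-β differed by no more than this interval allows, and they started from a higher level in KO MMC.

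Ptgs1 (chr2:36216742-36258593, plus strand) was at 32.0, 29.2 and 31.3 CPM in WT-SD, and at 45.7, 44.0 and 45.3 CPM in WT-TGF. In KO-SD it was at 18.5, 17.1 and 15.3 CPM, and in KO-TGF at 18.6, 17.4 and 19.1 CPM. All 6 KO libraries were below all 6 WT libraries, and the KO-SD and KO-TGF libraries overlapped. The log2 fold change of KO against WT was -0.86 in SD (SE 0.0607, adjusted p = 1.93e-13) and -1.29 with TGF-β (SE 0.0587, adjusted p = 3.82e-18). TGF-β changed Ptgs1 by 0.54 in WT (SE 0.0516, adjusted p = 7.92e-11) and by 0.11 in KO MMC (SE 0.0690, adjusted p = 0.139) on that scale. The response in KO was lower than that in WT by a log2 difference of -0.43 (95% interval -0.60 to -0.26, adjusted p = 0.000256). Unlike for Ptgs2, the treatment response of Ptgs1 differed between the genotypes beyond the spread between libraries.

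**Figure D1:**
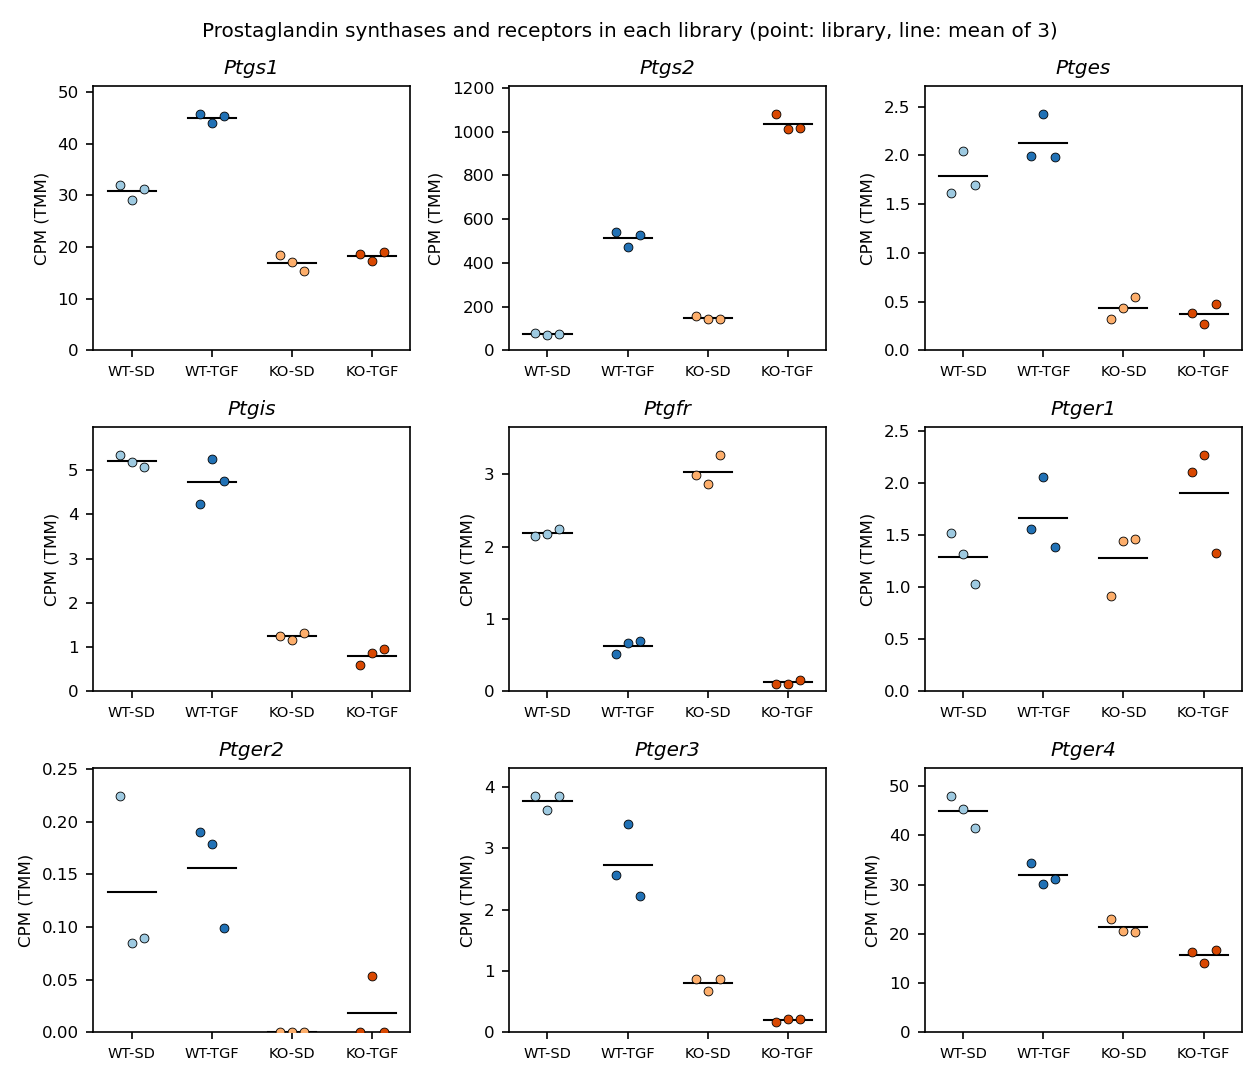
Level of each of the 9 genes in every library, with 1 panel per gene, group on the x axis and TMM-scaled CPM on the y axis; points are libraries and lines are means of 3. The Ptgs2 libraries run from 72.5 to 1079 CPM with no overlap between groups. The Ptgs1, Ptges, Ptgis, Ptger3 and Ptger4 panels have all KO libraries below all WT libraries, as does the Ptger2 panel, at the floor of detection.

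Per exon length, the makeup of cyclooxygenase transcripts differed between the 4 groups. The ratio of Ptgs2 to Ptgs1 RPKM was 2.06 ± 0.0400 in WT-SD, 9.70 ± 0.537 in WT-TGF, 7.39 ± 0.443 in KO-SD and 47.8 ± 2.34 in KO-TGF (SD, n = 3). Ptgs2 made up 67.3% ± 0.500 of the summed RPKM of both genes in WT-SD, 90.6% ± 0.473 in WT-TGF, 88.1% ± 0.569 in KO-SD and 97.9% ± 0.115 in KO-TGF. The summed RPKM was 24.3 ± 0.90, 124 ± 8.50, 36.6 ± 2.32 and 231 ± 8.14 in the same order. The groups did not overlap in the ratio, and an exact permutation test of 3 against 3 libraries cannot give p below 0.1, so no such test is given.

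**Figure D2:**
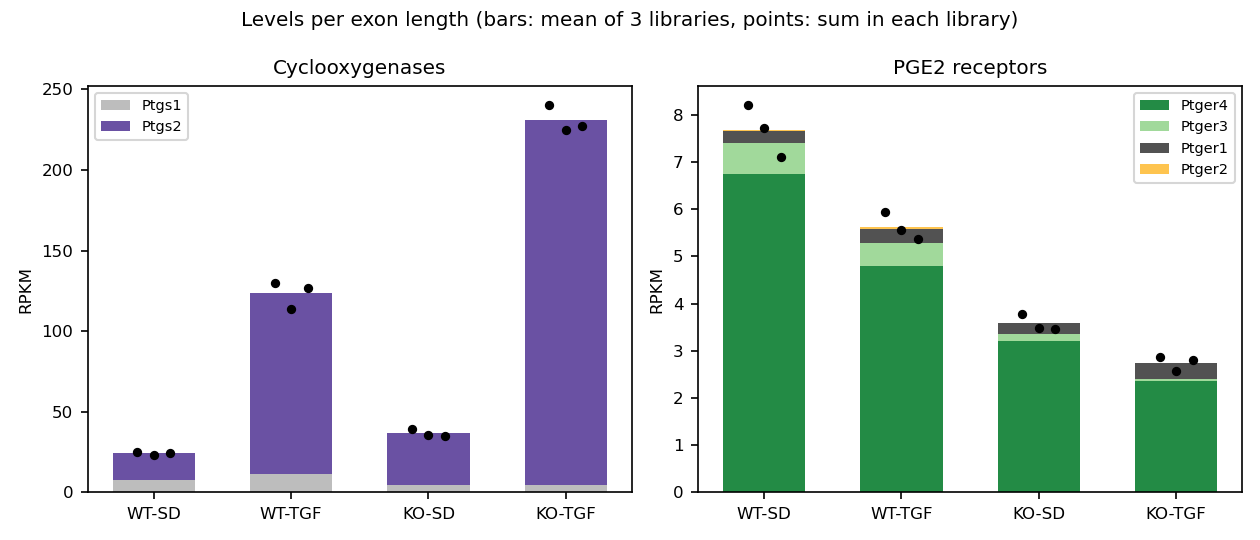
Summed RPKM (y axis) of the cyclooxygenase genes (left) and of the PGE receptor genes (right) in each group (x axis); stacked bars are means of 3 libraries per gene and points are the sum in each library. The cyclooxygenase sum was highest in KO-TGF at 231 and is nearly all Ptgs2 there, and the receptor sum was 7.67 in WT-SD and 2.75 in KO-TGF and is mostly Ptger4 in every group.

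The terminal synthase genes were lower in KO MMC. Ptges, whose product makes PGE2 from PGH2, was lower by 4.06-fold in SD and 5.60-fold with TGF-β. Ptgis, whose product makes prostacyclin, was lower by 4.15-fold and 5.84-fold. Neither passed the test for a TGF-β response in WT MMC.

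Ptges (chr2:30889471-30931020, minus strand) had 36, 48 and 38 counts in WT-SD, 42, 54 and 40 in WT-TGF, 7, 9 and 12 in KO-SD, and 7, 5 and 9 in KO-TGF. In CPM this was 1.78 ± 0.228, 2.13 ± 0.250, 0.436 ± 0.114 and 0.376 ± 0.105. All KO libraries were below all WT libraries, and within a genotype the SD and TGF-β libraries overlapped. The log2 fold change of KO against WT was -2.02 in SD (SE 0.281, adjusted p = 5.32e-12) and -2.49 with TGF-β (SE 0.295, adjusted p = 3.88e-16). From the summed counts alone, the ratio was 4.10-fold lower in SD (28 against 122 counts, 95% exact interval 2.70 to 6.42) and 5.68-fold lower with TGF-β (21 against 136 counts, 3.57 to 9.47). The TGF-β response was 0.26 in WT (adjusted p = 0.293) and -0.21 in KO MMC (adjusted p = 0.740). With so few counts in KO MMC, the interval of the difference between responses was wide, from -1.38 to 0.45 on the log2 scale (adjusted p = 0.640).

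Ptgis (chr2:167203194-167252150, minus strand) was at 5.33, 5.19 and 5.06 CPM in WT-SD and at 4.22, 5.24 and 4.75 CPM in WT-TGF. It was at 1.24, 1.16 and 1.33 CPM in KO-SD, and at 0.596, 0.864 and 0.958 CPM in KO-TGF. The WT groups overlapped each other, and the KO-TGF libraries, with 11 to 18 counts, were all below the KO-SD libraries, with 24 to 29. Against WT the log2 fold change was -2.05 in SD (SE 0.161, adjusted p = 2.27e-12) and -2.55 with TGF-β (SE 0.191, adjusted p = 8.28e-13). TGF-β lowered Ptgis in KO MMC by a log2 change of -0.62 (SE 0.256, adjusted p = 0.0297). This call was lost in DESeq2 (adjusted p = 0.0530), in a fit of only the groups compared (0.0590) and without KO-TGF replicate 1 (0.151), or without replicate 1 (0.0543) or 3 (0.0785) of KO-SD. In WT MMC the change was -0.13 (adjusted p = 0.340), and the interaction was -0.49 with a 95% interval of -1.05 to 0.06 (adjusted p = 0.217).

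Among the receptor genes, those for PGE and PGF differed in their pattern. Ptger3 and Ptger4 were lower in KO than in WT MMC and lower with TGF-β in both genotypes. Ptgfr fell with TGF-β in both genotypes. It was lower in KO with TGF-β and, by a smaller difference, higher in KO in SD. The SD difference lost its call in DESeq2 (adjusted p = 0.174), as did the fall of Ptger3 with TGF-β in WT MMC (0.0843). Ptger1 did not differ between genotypes beyond the spread between libraries, and Ptger2 was at the floor of detection.

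Ptger4 encodes EP4, which raises cAMP through Gs, and was the receptor member with the highest RPKM in every group. The gene (chr15:5233399-5244187, minus strand) was at 47.9, 45.3 and 41.4 CPM in WT-SD, 34.4, 30.2 and 31.2 in WT-TGF, 23.1, 20.6 and 20.3 in KO-SD and 16.3, 14.0 and 16.7 in KO-TGF. The 4 groups did not overlap. KO against WT gave log2 fold changes of -1.07 in SD (SE 0.0632, adjusted p = 2.45e-15) and -1.02 with TGF-β (SE 0.0735, adjusted p = 3.02e-13). TGF-β changed it by -0.49 in WT (SE 0.0591, adjusted p = 1.14e-08) and by -0.44 in KO MMC (SE 0.0787, adjusted p = 9.24e-06). The responses differed by 0.05 with a 95% interval of -0.15 to 0.24 (adjusted p = 0.779). Ptger4 shares 15.3% of its exon bases with a pseudogene on the opposite strand.

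Ptger3 encodes EP3, which lowers cAMP through Gi. It had 86, 85 and 86 counts in WT-SD, 54, 76 and 45 in WT-TGF, 19, 14 and 19 in KO-SD, and 3, 4 and 4 in KO-TGF (chr3:157566821-157644758, plus strand). In CPM this was 3.77 ± 0.134, 2.73 ± 0.607, 0.808 ± 0.113 and 0.197 ± 0.0299, with no overlap between groups and the KO-TGF libraries close to the floor. KO against WT gave log2 fold changes of -2.21 in SD (SE 0.203, adjusted p = 2.74e-26) and -3.76 with TGF-β (SE 0.317, adjusted p = 3.76e-31). By summed counts, KO-TGF was 13.9-fold below WT-TGF (11 against 175 counts, 95% interval 7.60 to 28.4). This interval too is wider than the fitted SE implies. TGF-β changed it by -0.45 in WT (SE 0.155, adjusted p = 0.00751) and by -2.01 in KO MMC (SE 0.423, adjusted p = 6.18e-06). The WT call was lost in DESeq2 (adjusted p = 0.0843) and without WT-TGF replicate 3 (log2 fold change -0.33, adjusted p = 0.0988). The fall was deeper in KO, with an interaction of -1.55 (95% interval -2.46 to -0.65, adjusted p = 0.00652), which DESeq2 put at -1.53 (adjusted p = 0.0563).

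Ptgfr encodes FP, the receptor of PGF2α, which raises calcium through Gq. The gene (chr3:151798610-151837528, minus strand) had 48, 51 and 50 counts in WT-SD, 11, 15 and 14 in WT-TGF, 65, 59 and 71 in KO-SD, and 2, 2 and 3 in KO-TGF. In CPM this was 2.19 ± 0.0464, 0.629 ± 0.0936, 3.04 ± 0.204 and 0.125 ± 0.0297, and the 4 groups did not overlap. TGF-β lowered Ptgfr by a log2 change of -1.79 in WT (SE 0.245, adjusted p = 1.41e-12) and -4.53 in KO MMC (SE 0.343, adjusted p = 5.34e-39). The KO-TGF libraries were at or under the floor, and by summed counts the fall in KO was 24.2-fold (7 against 195 counts, 95% interval 11.5 to 61.0). This counting interval is wider than the fitted SE implies, so the fitted SEs and intervals of Ptgfr are too narrow. The interaction was -2.75 (SE 0.527, 95% interval -3.78 to -1.71, adjusted p = 3.41e-06). With TGF-β, KO was 5.01-fold below WT by summed counts (7 against 40, 2.22 to 13.2), with a fitted log2 fold change of -2.27 (SE 0.502, adjusted p = 2.86e-05). In SD, KO was above WT by a log2 fold change of 0.48 (SE 0.171, adjusted p = 0.0152). This smaller difference lost its call with scaling by library size alone (0.37, adjusted p = 0.0689), in DESeq2 (0.45, adjusted p = 0.174) and without KO-SD replicate 3 (0.42, adjusted p = 0.0706).

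Ptger1 encodes EP1, which raises calcium. It had 34, 31 and 23 counts in WT-SD, 33, 46 and 28 in WT-TGF, 20, 30 and 32 in KO-SD, and 39, 42 and 25 in KO-TGF (chr8:83666644-83672756, plus strand). The 4 groups overlapped, at 1.29 ± 0.248, 1.67 ± 0.349, 1.28 ± 0.312 and 1.90 ± 0.503 CPM. KO against WT gave -0.01 in SD (95% interval -0.47 to 0.44, adjusted p = 1.0) and 0.18 with TGF-β (-0.24 to 0.59, adjusted p = 0.551) on the log2 scale. The TGF-β change was 0.38 in WT (adjusted p = 0.144) and 0.57 in KO MMC (SE 0.223, adjusted p = 0.0216). The latter call was lost with scaling by library size alone (0.35, adjusted p = 0.179), in DESeq2 (0.61, adjusted p = 0.0946), and on leaving out KO-SD replicate 1 (0.38, adjusted p = 0.190) or replicate 1 (0.49, adjusted p = 0.0994) or 2 (0.43, adjusted p = 0.169) of KO-TGF.

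Ptger2 encodes EP2, which raises cAMP through Gs. It had 5, 2 and 2 counts in WT-SD, 4, 4 and 2 in WT-TGF, 0, 0 and 0 in KO-SD, and 0, 1 and 0 in KO-TGF (chr14:44988111-45003820, plus strand). Only 3 of 12 libraries exceeded the floor of 3 counts, so no fold is given. The test called Ptger2 lower in KO-SD (adjusted p = 0.0104), a call that was lost without WT-SD replicate 1 (adjusted p = 0.0788), and did not call it with TGF-β (adjusted p = 0.0562). Against the other EP genes, this receptor was close to undetectable at this depth in all 4 groups.

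Per exon length, Ptger4 dominated the EP transcripts in all groups, with 87.9% ± 0.416 of the summed EP RPKM in WT-SD, 85.5% ± 3.19 in WT-TGF, 89.4% ± 1.90 in KO-SD and 85.8% ± 4.01 in KO-TGF. The summed EP RPKM was 7.67 ± 0.546, 5.62 ± 0.296, 3.58 ± 0.182 and 2.75 ± 0.157 in the same order. The share of the Gi-coupled Ptger3 was 8.67% ± 0.733 in WT-SD, 8.56% ± 1.94 in WT-TGF, 3.96% ± 0.502 in KO-SD and 1.27% ± 0.249 in KO-TGF. Within each genotype the Ptger4 share overlapped between SD and TGF-β. These RPKM values divide by the union of annotated exons, which can be longer than the transcript expressed.

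**Figure D3:**
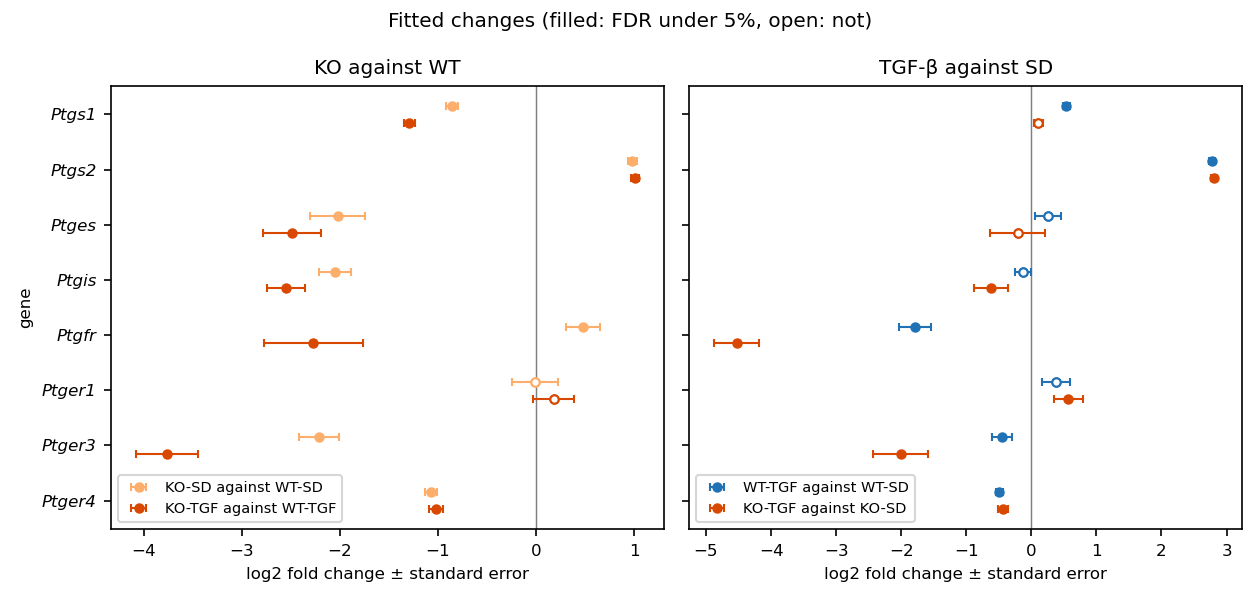
Fitted log2 fold change ± SE (x axis) for each gene (y axis) except Ptger2, of KO against WT (left) and of TGF-β against SD (right). Filled points had FDR under 5%. The SE bars of Ptges, Ptgfr and Ptger3 understate the error. Ptgs2 lies near 1 in both KO against WT comparisons and near 2.8 in both TGF-β responses, while the Ptgfr points lie apart in each panel, at 0.48 and -2.27 on the left and at -1.79 and -4.53 on the right.

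Counted over the 9 genes, KO-SD against WT-SD gave 2 higher, 6 lower and 1 not passing the test. Of the 4 genes above the RPKM limit, 1 was higher and 3 were lower, beside 35.6% and 21.6% of all 11477 genes tested. Of the 5 below it, 1 was higher and 3 were lower, beside 23.4% and 17.9% of all 18565 genes with a count. In KO-TGF against WT-TGF, 1 of the 4 was higher and 3 were lower (28.9% and 26.3% of genes tested), and 0 of the 5 were higher and 3 lower (18.7% and 20.3% of genes with a count). Without Ptger2, whose counts give no fold, the median log2 fold change was -0.97 in SD and -1.78 with TGF-β, beside medians of 0.05 and 0.01 over all genes tested. Ptgis is among the 3 lower genes above the limit and passed the limit by its WT libraries, so that its place there is tied to its direction. The gene higher in KO in both conditions was Ptgs2, and these counts describe 9 chosen genes without a test of the list.

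The TGF-β responses were more evenly split. In WT MMC, 2 of the 4 genes above the limit rose and 1 fell (39.3% and 33.4% of genes tested), and 0 of the 5 below it rose and 2 fell (25.9% and 25.8% of genes with a count). In KO MMC, 1 of the 4 rose and 2 fell (36.4% and 37.8%), and 1 of the 5 rose and 2 fell (23.8% and 28.5%). For the interaction, 0 of the 4 were higher and 1 was lower (7.69% and 18.7%), and 0 of the 5 were higher and 2 lower (4.80% and 12.5%). The genes lower in the interaction were Ptgs1, Ptger3 and Ptgfr. With TGF-β the median log2 change of these 8 genes was 0.06 in WT and -0.33 in KO MMC, beside 0.03 and -0.01 over all genes tested. With so few members, these counts were not tested against the shares over all genes.

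Genes with the most similar profile over the 12 libraries are given as a description, since the libraries share the 4 group means that set these correlations. With log2 CPM, Ptgs2 was closest to Actn1 and Plk2 (Pearson r = 0.999 for both) and Ptgs1 to Rdh10 (0.993) and Synpo (0.986). Ptgis was closest to Lyz2 (0.995) and Gpsm3 (0.991), and Ptger4 to Slc9a7 (0.991) and Lrrc75b (0.989). Synpo encodes an actin-associated protein of podocytes, Actn1 an actin cross-linker, and Lyz2 the lysozyme of macrophages.

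Around the members, the other genes of the pathway were described from 7 lists, whose counts are to be read beside the 35.6% higher and 21.6% lower of all genes tested in KO-SD and the 28.9% and 26.3% in KO-TGF. Of 15 genes for arachidonate release, 5 were tested, and the 8 genes never over the floor included most of the secreted phospholipase A2 genes listed. Pla2g4a, the cytosolic phospholipase A2 that releases arachidonic acid, was named after its values were seen and was at 74.9 ± 2.04 CPM in WT-SD, 91.8 ± 0.839 in WT-TGF, 115 ± 4.11 in KO-SD and 135 ± 0.821 in KO-TGF. The 4 groups did not overlap, in an order in which both KO groups stood above both WT groups. The log2 fold change of KO against WT was 0.61 in SD (adjusted p = 4.33e-16) and 0.56 with TGF-β (adjusted p = 3.33e-15). Over the 5 tested genes, 2 were higher and 2 lower in KO-SD, and in KO-TGF the numbers were 2 and 0.

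Of the other prostanoid synthases, 3 of 8 genes in the files were tested, with 0 higher and 2 lower in KO-SD and 0 higher and 1 lower in KO-TGF, none by more than 2-fold. Among these the other PGE synthase genes reached a higher RPKM than Ptges, with highest values of 3.27 for Ptges2 and 25.7 for Ptges3 against 0.615. Of the other prostanoid receptors, Ptgfrn, which encodes a regulator of FP, was the 1 gene of 5 that was tested, and the DP receptor genes Ptgdr and Ptgdr2 were never over the floor. Ptgfrn was lower in KO by a log2 fold change of -0.21 in SD (adjusted p = 2.71e-08) and -0.49 with TGF-β (adjusted p = 1.09e-16). Lta4h was the 1 of 13 leukotriene and lipoxygenase genes tested, at 78.8 CPM in WT-SD, and passed the test in KO-TGF against WT-TGF with a log2 fold change of 0.10 (adjusted p = 0.0163).

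Prostaglandin transport and breakdown had 5 of 6 genes tested, of which 0 were higher and 4 lower in KO-SD, and 1 higher and 4 lower in KO-TGF, beside 35.6% and 21.6%, and 28.9% and 26.3%, of all genes tested. Slco2a1, the prostaglandin uptake transporter, was at 74.9, 73.5 and 76.7 CPM in WT-SD, 85.1, 79.3 and 81.5 in WT-TGF, 29.2, 29.6 and 28.0 in KO-SD and 68.9, 75.7 and 73.9 in KO-TGF. The KO-SD libraries stood apart below all others. Its log2 fold change was -1.37 in KO-SD against WT-SD (SE 0.0447, adjusted p = 7.74e-22), -0.17 in KO-TGF against WT-TGF (SE 0.0398, adjusted p = 0.000547) and 1.33 with TGF-β in KO MMC (SE 0.0458, adjusted p = 9.34e-22). The interaction was 1.20 (adjusted p = 4.67e-16). Abcc4, an efflux transporter that exports prostaglandins, fell with TGF-β by -1.02 in WT (adjusted p = 1.14e-18) and -0.70 in KO MMC (adjusted p = 2.09e-14) on the log2 scale.

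Downstream of the receptors, 13 of 17 G protein and adenylyl cyclase genes were tested, of which 7 were higher and 3 lower in KO-SD, and in KO-TGF the numbers were 5 and 4. The shares over all genes tested were 35.6% higher and 21.6% lower in KO-SD and 28.9% and 26.3% in KO-TGF, and the list was not tested against them. Adcy7 was at 1.75 ± 0.157 CPM in WT-SD and 32.1 ± 3.44 in WT-TGF, and at 3.25 ± 0.751 CPM in KO-SD and 24.3 ± 1.25 in KO-TGF. It passed the RPKM limit by its TGF-β-treated libraries, with mean RPKM of 0.260 and 0.483 in the SD groups, so its place among the genes tested is tied to its direction. Adcy1 was higher in KO in both conditions, by log2 fold changes of 1.18 (adjusted p = 5.18e-13) and 1.14 (adjusted p = 4.07e-16). Gnai1, a Gi subunit of the kind that couples to EP3, was at 37.8 ± 1.32, 25.8 ± 2.01, 31.7 ± 2.92 and 11.9 ± 1.08 CPM, with a log2 fold change of -1.11 in KO-TGF against WT-TGF (adjusted p = 2.44e-13). Of the cAMP-responsive genes, 10 of 12 were tested, with 2 higher and 5 lower in KO-SD and 4 higher and 3 lower in KO-TGF, to be read beside the same shares. In that list 1 gene passed 2-fold, Sik1, which fell with TGF-β from 41.1 ± 1.23 to 18.2 ± 1.20 CPM in WT MMC. The median log2 fold change of the cAMP-responsive genes was -0.13 in KO-SD and 0.09 in KO-TGF, beside 0.05 and 0.01 over all genes tested.

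**Figure D4:**
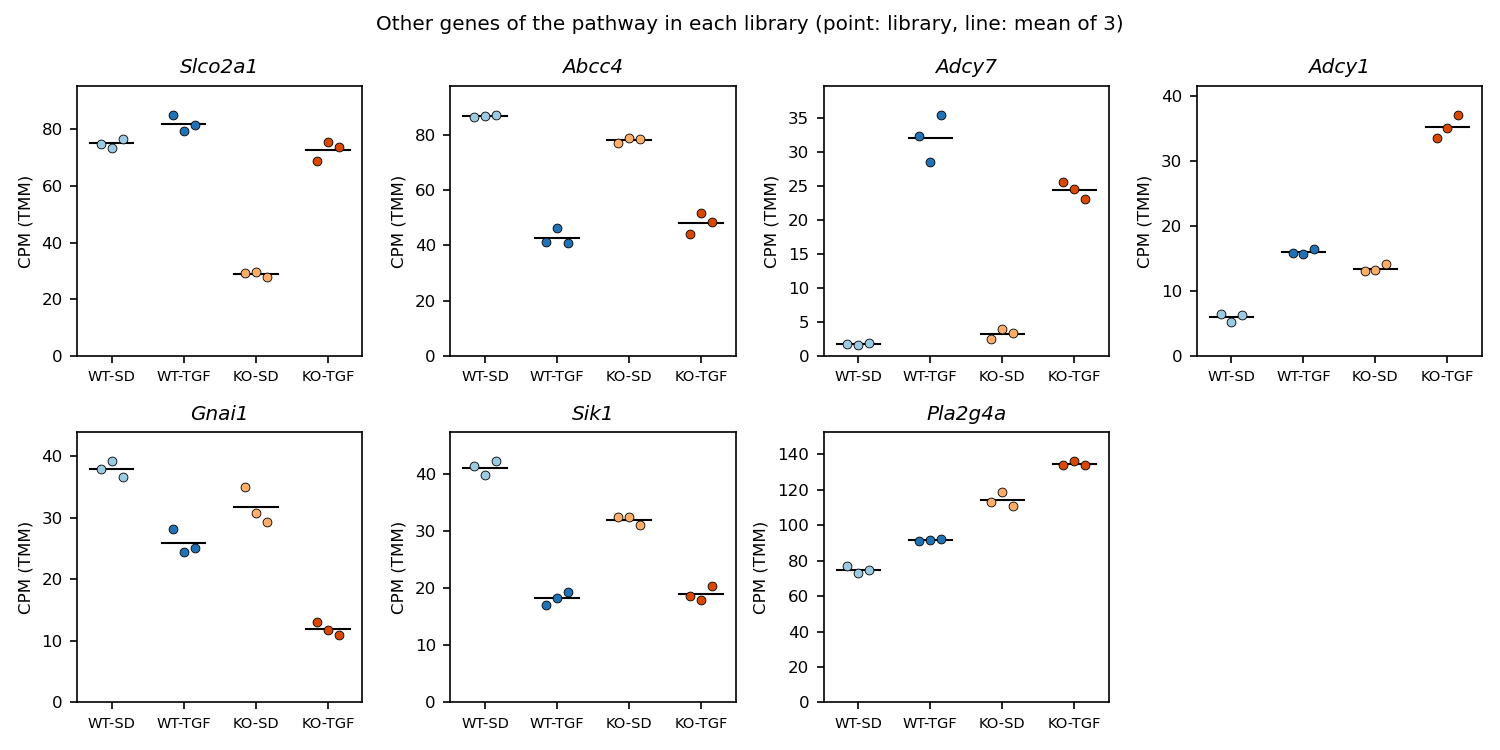
Level in each library of 7 other genes of the pathway, with group on the x axis and TMM-scaled CPM on the y axis; points are libraries and lines are means of 3. Slco2a1 was lowest in KO-SD (28.0 to 29.6 CPM), Adcy7 was low in both SD groups, and Pla2g4a had its lowest values in WT-SD and its highest in KO-TGF.

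The labelled cell type was checked against marker lists. Of the mesangial and smooth muscle genes, Pdgfrb, Acta2, Tagln and Myl9 had at least 2101 counts in every library, Ren1 was at 0 and Thy1 had at most 1 count. The summed CPM of the 10 genes of that list was 2579 to 2725 in WT-SD, 5840 to 5980 in WT-TGF, 5105 to 5293 in KO-SD and 11210 to 11295 in KO-TGF. Acta2 and Tagln made up 83.7% to 91.9% of it. Des and Itga8 of the same list did not follow the sum, with 156 to 202 Des counts in WT-SD, 11 to 12 in KO-SD and 3 to 7 in KO-TGF, and 58 to 69 Itga8 counts in WT-SD against 11 to 13 in KO-TGF. The order of the groups in the sum is also that for Ptgs2, and the part of this list in its levels was not tested.

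Markers of other cell types moved with the genotype, as several of the members did. The summed CPM of 12 macrophage genes was 37.9 to 41.4 in WT-SD, 21.3 to 25.5 in WT-TGF, 8.43 to 9.91 in KO-SD and 2.65 to 3.04 in KO-TGF, and Adgre1, Tyrobp, C1qa and C1qb were at 0 in all KO libraries. This is the same order of groups as for Ptger3 and Ptger4. Ptgis had this order too by group means, though its WT-SD and WT-TGF libraries overlapped. The gene closest to Ptgis in profile, Lyz2 (Pearson r = 0.995), is in this macrophage list. Macrophages are known to express Ptgs1, Ptges and Ptger4. Ptgs1 rose with TGF-β in WT MMC, where the macrophage sum fell, and its KO-SD and KO-TGF libraries overlapped. Ptges departed from the order of the sum by its WT group means alone. Its WT libraries overlapped, and its TGF-β change there did not pass the quasi-likelihood test (log2 change 0.26, adjusted p = 0.293). For Ptgs1 and Ptges, as for the macrophage sum, all KO libraries were below all WT libraries. The list was not uniform, and Cd14 made up 71.4% to 77.8% of its sum in KO-SD. Cx3cr1 had 0 to 3 counts in WT-SD and 6 to 15 in WT-TGF, while Adgre1, Lyz2 and Cd14 fell with the sum. The summed CPM of 6 podocyte genes was 452 to 460, 457 to 476, 218 to 228 and 208 to 223 in the same order, most of it from Synpo, while Nphs1 had at most 1 count in any library. The 8 endothelial genes summed to 32.4 to 33.0, 20.3 to 22.7, 17.3 to 18.6 and 9.37 to 11 CPM, mostly from Ehd3, with Cdh5 and Emcn at no more than 2 counts. The 8 tubular genes summed to 45.4 to 48.2, 12.8 to 13.7, 18.2 to 20.2 and 6.76 to 7.37 CPM, with Umod, Aqp2 and Slc34a1 at 0. Lrp2 made up 89.4% to 90.5% of that sum in WT-SD and 46.1% to 48.0% in KO-TGF, where Slc12a1 made up 41.7% to 46.1%. Against the sum, Aqp1 had 82 to 99 counts in WT-SD and 137 to 150 in KO-SD, and Slc12a1 had 5 to 10 and 18 to 34. The part of these lists in the levels of Ptgs1, Ptges, Ptgis, Ptger3 and Ptger4 was not tested.

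**Figure D5:**
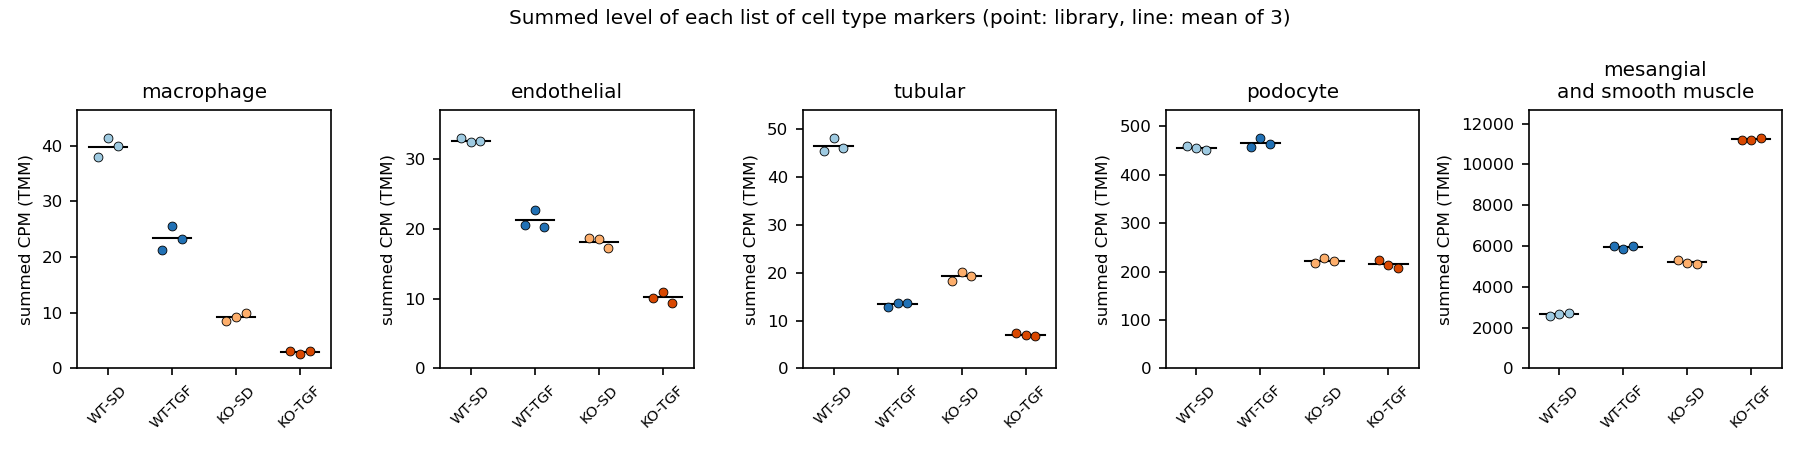
Summed TMM-scaled CPM (y axis) of each marker list in every library, with group on the x axis; points are libraries and lines are means of 3. The macrophage sum was 37.9 to 41.4 in WT-SD and 2.65 to 3.04 in KO-TGF, and the podocyte sum is lower in both KO groups than in both WT groups.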

How the data were processed

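RNA-seq libraries were made with a stranded mRNA kit from MMC, 3 for each of 4 groups and 12 in all. Per the labels and the methods of the study, TopHat aligned the single-end reads to mm10, and HTSeq-count counted them by strand on RefSeq genes and dropped poor alignments. What the authors deposited are raw counts, 1 whole number per gene and library, with no normalization or filter. Reads with several alignments (11.2% to 11.7%), on no gene (10.3% to 15.4%) or on overlapping genes (0.225% to 0.274%) are not in the gene counts, and these totals were left out of library sizes and tests.

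From the counts, TMM factors and edgeR 4.0.16 (R 4.3.3) gave the quasi-likelihood test in 1 fit of all 12 libraries with a mean per group, with Benjamini-Hochberg adjustment. Following the study's methods, genes with RPKM over 1 in at least 1 library were tested (11477 of 18565 with a count), with exon lengths as the union of GENCODE vM21 exons, found for 24708 of 25230 genes. For genes below that limit, values come from a second fit without this filter, with p-values adjusted over its genes. Intervals of count ratios are exact binomial (Clopper-Pearson) at 95%. Promoter windows and their coordinates are from RefSeq on GRCm38.p6, the assembly of mm10. The code was tested on simulated data.

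All 9 members are named. Of the 7 pathway lists, genes with FDR under 5% and a fold change over 2 in a pairwise contrast are named, at most 5 per list, and other genes of these lists and of the marker lists were named after their values were seen. The genes of similar profile are the 2 with the highest Pearson r of log2 CPM (prior count 2) for each member with RPKM over 1, among tested genes whose mean over all libraries was 5 CPM or more. The members, the lists and the rule were chosen with earlier results of these data known. Replicate pairs of a group differed by more than counting noise (chi-square per degree of freedom 1.33 to 5.2 over 12 pairs). Alternatives were DESeq2 1.42.0, library size in place of TMM, no filter or CPM over 1 in at least 3 libraries, fits restricted to the groups compared, a block for the replicate number, and each library left out. Results for some genes are not reported here.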

Additional observations from a re-analysis of the deposited data

Results flagged for a closer look

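For 3 of the 9 genes the response to TGF-β differed between KO and WT MMC in the interaction test of edgeR's quasi-likelihood fit with Benjamini-Hochberg adjustment, and each difference was negative. Of the 4 genes above the RPKM limit, 1 was lower, beside 18.7% lower and 7.69% higher of all genes tested. Of the 5 below it, 2 were lower, beside 12.5% lower and 4.80% higher of all genes with a count. For Ptgs1 the log2 response in KO minus that in WT was -0.43 (adjusted p = 0.000256), with a rise in WT that was not seen to pass the test in KO. For Ptgfr it was -2.75 (adjusted p = 3.41e-06), with 2, 2 and 3 counts left in the KO-TGF libraries. For Ptger3 it was -1.55 (adjusted p = 0.00652), with 3, 4 and 4 counts in KO-TGF and an adjusted p of 0.0563 in DESeq2.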

How the results depend on the processing

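The number of members higher in KO-SD fell from 2 to 1 with scaling by library size alone, in DESeq2 and without KO-SD replicate 3, where Ptgfr lost its call. The number that rose with TGF-β in KO MMC fell from 2 to 1 with scaling by library size alone, in DESeq2 and without KO-TGF replicate 1 or 2, where Ptger1 lost its call. Over the 12 fits that each left out 1 library, members higher and lower numbered 1 to 2 and 5 to 6 in KO-SD, 1 and 6 to 7 in KO-TGF, 2 and 2 to 3 in the WT response, 1 to 2 and 3 to 4 in the KO response, and 0 and 3 in the interaction. Values that changed sign were not called. These were Ptger1 in KO-SD (-0.15 to 0.18 over the libraries left out, and 0.12 without WT-SD replicate 1), Ptgs1 in the KO response with scaling by library size alone (-0.10), Ptgs2 in the interaction (-0.03 to 0.08) and Ptger2 in the interaction (-0.24 to 2.24, fitted values that cannot be read as a fold, since KO-SD had 0 counts in every library). The cause was not tested. Calls gained were Ptger2 lower in KO-TGF with library size alone (adjusted p = 0.0385) and without KO-TGF replicate 2 (0.0341), Ptgis lower in the WT response with library size alone (0.0191) and Ptgs1 higher in the KO response without KO-SD replicate 1 (0.0263). Scaling by library size alone moved the median log2 change of all genes tested from 0.05 to -0.06 in KO-SD, 0.01 to -0.13 in KO-TGF, 0.03 to -0.16 in the WT response and -0.01 to -0.23 in the KO response. Deviations of same-numbered libraries correlated at -0.03 to 0.09, beside -0.1 to 0.04 for libraries of other numbers. These correlations were weak, but 10 of 12 libraries correlated best with their own number. Whether replicate numbers pair the libraries is not given by the labels and was not tested. With the replicate block, genes called numbered 6729 in KO-SD, 6481 in KO-TGF, 8429 and 8601 in the WT and KO responses and 3302 in the interaction, against 6555, 6329, 8339, 8513 and 3029 without it, and the members' counts did not change. The depth limits what can be said of Ptger2, Ptgfr and Ptger3, whose KO-TGF libraries held at most 4 counts.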
